A study of Rattus norvegicus with 2 samples.

Results

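Rat transcripts that the expression table lists without a gene name, but within 5000 bases of a named gene, were described in H9c2 cells after transfection with a plasmid for Cacnb4 and after transfection with an empty vector. A transcript was a member where the gap between its locus and the nearest named locus on the same chromosome was 5000 bases or less. The rule used positions alone and no expression value. It found 2591 members among 13533 unnamed transcripts and 32767 transcripts in all. H9c2 is a line of embryonic rat heart origin, which the labels place in strain BD1X and heart/myocardium. One library came from H9c2 cells given the beta4 plasmid, which carries Cacnb4, the gene of a calcium channel beta subunit. The other library came from H9c2 cells given the empty vector, so both had been transfected. Each group held 1 library, no difference here has a replicate check, and every ratio compares these 2 libraries, Cacnb4 over empty vector.

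An assembled transcript with no gene name is a stretch of the genome that reads cover outside the annotated genes. Close to a gene it may be an unannotated exon or the end of a longer untranslated region, RNA read past the end of the gene, a transcript that starts at the same promoter in the other direction, or part of a neighbouring gene that the annotation lacks. Interferon-stimulated genes are switched on together by Stat and Irf transcription factors that bind short promoter elements rich in GAAA. MicroRNA genes are cut from long primary transcripts, so that RNA beside a precursor can come from the same primary transcript while the mature microRNA is made or lost at another rate. The table gives no strand, so that RNA of a gene and RNA from the opposite strand of its flank cannot be told apart.

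The sequences below bear on the results. They are promoters of some interferon-stimulated genes beside which, or in whose interval, members were higher, and some mature microRNAs whose precursors lie next to members. No promoter was available for Isg15 and Ifit1, and those of Parp10, Apol3 and Slfn13 are not shown. The promoters shown are thus not a full set, and their matches do not give a share. Promoters are RefSeq sequences on assembly GRCr8, from 250 bases before to 50 after the gene start. They lie at chr1:241527076-241527375 on the plus strand for Ifit3, chr11:78319975-78320274 on the plus strand for Dtx3l, chr1:142239809-142240108 on the plus strand for Isg20, chr10:57415685-57415984 on the plus strand for Xaf1, chr4:68850492-68850791 on the minus strand for Parp12 and chr4:68029304-68029603 on the minus strand for Zc3hav1. Capitals mark GAAANNGAAA on either strand, which reads TTTCNNTTTC where it lies on the other strand. This motif was present in 1312 of the 33469 promoters of the table, 3.92%.
Ifit3: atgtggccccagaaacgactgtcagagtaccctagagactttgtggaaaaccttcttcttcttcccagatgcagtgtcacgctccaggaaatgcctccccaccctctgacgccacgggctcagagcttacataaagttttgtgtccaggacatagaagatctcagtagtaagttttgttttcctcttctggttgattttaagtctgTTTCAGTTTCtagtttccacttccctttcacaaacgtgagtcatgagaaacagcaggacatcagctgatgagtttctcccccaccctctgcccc
Dtx3l: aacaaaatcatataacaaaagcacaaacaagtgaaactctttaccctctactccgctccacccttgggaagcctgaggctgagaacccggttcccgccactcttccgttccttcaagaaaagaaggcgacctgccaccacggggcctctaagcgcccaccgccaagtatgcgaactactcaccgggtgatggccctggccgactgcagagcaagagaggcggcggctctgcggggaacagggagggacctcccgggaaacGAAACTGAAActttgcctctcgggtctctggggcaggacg
Isg20: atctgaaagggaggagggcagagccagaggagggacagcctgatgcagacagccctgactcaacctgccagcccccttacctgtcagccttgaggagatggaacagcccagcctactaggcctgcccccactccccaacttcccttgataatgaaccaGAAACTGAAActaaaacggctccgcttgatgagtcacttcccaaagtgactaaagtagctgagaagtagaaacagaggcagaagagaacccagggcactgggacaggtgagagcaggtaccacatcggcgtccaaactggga
Xaf1: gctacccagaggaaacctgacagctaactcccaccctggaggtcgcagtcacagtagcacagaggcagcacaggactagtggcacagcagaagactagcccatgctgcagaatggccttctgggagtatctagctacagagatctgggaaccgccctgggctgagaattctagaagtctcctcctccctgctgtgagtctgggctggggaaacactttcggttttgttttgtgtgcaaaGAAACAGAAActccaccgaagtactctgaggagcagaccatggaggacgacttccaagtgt
Parp12: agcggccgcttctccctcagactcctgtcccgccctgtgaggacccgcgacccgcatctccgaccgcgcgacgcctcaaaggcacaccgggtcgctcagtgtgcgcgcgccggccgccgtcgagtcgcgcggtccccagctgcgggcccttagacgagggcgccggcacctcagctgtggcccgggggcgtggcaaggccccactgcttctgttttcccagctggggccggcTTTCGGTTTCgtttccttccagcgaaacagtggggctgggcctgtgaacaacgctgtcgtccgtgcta
Zc3hav1: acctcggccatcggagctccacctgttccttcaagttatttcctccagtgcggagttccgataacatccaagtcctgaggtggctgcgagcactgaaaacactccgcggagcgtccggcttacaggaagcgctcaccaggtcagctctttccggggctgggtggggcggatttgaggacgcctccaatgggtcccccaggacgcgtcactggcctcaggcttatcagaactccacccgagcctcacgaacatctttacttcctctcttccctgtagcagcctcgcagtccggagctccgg
The first base of the match stood at -44 in Ifit3, 10 in Dtx3l, -92 in Isg20, -11 in Xaf1 and -18 in Parp12, counted from the gene start. The Zc3hav1 window held no match. A match is a stretch of letters and shows no binding.

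The mature microRNAs are RefSeq sequences of the same assembly with the seed, bases 2 to 8, in capitals. They are shown because 51 members lay beside microRNA precursors.
let-7f-5p: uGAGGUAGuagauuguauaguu
miR-98-5p: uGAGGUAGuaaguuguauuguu
miR-92b-3p: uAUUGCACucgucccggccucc
miR-32-5p: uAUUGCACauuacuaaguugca
miR-22-3p: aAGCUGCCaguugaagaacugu
miR-21-5p: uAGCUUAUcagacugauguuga
The seed GAGGUAG is shared by let-7f-5p and miR-98-5p, and AUUGCAC by miR-92b-3p and miR-32-5p. The genomic sequences of the members themselves are not printed, because their coordinates are on rn4 and no genome of that build was used here.

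Mappable reads numbered 14939784 of 16925364 in the Cacnb4 library and 13569897 of 15258174 in the empty vector library. Cacnb4 was listed at 6266 FPKM after its plasmid and 4.37 FPKM after the empty vector. FPKM is fragments scaled to transcript length and library size. Of the 5 muscle markers of the line, 4 reached 1 FPKM, with Tnnt2 at 309 FPKM after Cacnb4 and 214 FPKM after the empty vector, and Actn2 was under 1 FPKM in both. The 5 leukocyte markers summed to 11.2 FPKM in the Cacnb4 library and 9.42 FPKM in the empty vector library, and only Cd14 reached 1 FPKM. The 3 endothelial markers that were listed summed to 0.456 FPKM in the Cacnb4 library and 0.235 FPKM in the empty vector library. Neuronal and glial markers summed to 23.6 FPKM in the Cacnb4 library and 24.5 FPKM in the empty vector library, and only Tubb3 reached 1 FPKM. No member lay beside a gene of these marker lists.

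No member overlapped a named locus. The gap ran from 50 to 5000 bases with a median of 2454, and members lay about equally on the lower (1289) and the higher (1302) coordinate side of their gene. Their nearest genes numbered 1553, of which 964 had a lone member and 105 had 4 or more. By RefSeq type, 2496 members lay beside 1502 protein-coding genes and 51 beside 21 microRNA precursors. Locus length ran from 18 to 9301 bases with a median of 315, against 185 for unnamed transcripts farther from genes and 21962 for named transcripts. Loci under 500 bases made up 72.8% of members.

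The number of reads behind each value could be worked back, because the FPKM of members of equal length are whole multiples of a common step. With fragments of mean length 200 and SD 80 bases, none shorter than 12 bases, 93.7% of the 4581 member values between 0.5 and 100 reads came out whole within 0.05 reads. At a locus of 94 bases, 1 read was worth 30.8 FPKM in the Cacnb4 library and 33.2 FPKM in the empty vector library. At 545 bases it was worth 0.228 FPKM in the Cacnb4 library and 0.246 FPKM in the empty vector library. High FPKM at a short locus can thus rest on few reads. Among 2520 members whose values were whole in both libraries, or within 0.2% of a whole number, the library with more reads never had fewer than 10, and 198 members had exactly 10 there. A short transcript with few reads in 1 library is therefore in the table only through the other library.

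All 2591 members reached 1 FPKM in at least 1 library. On the scale log2((FPKM Cacnb4 + 1)/(FPKM empty vector + 1)), 296 members were higher after Cacnb4 by 2-fold or more and 225 were lower by as much, and the median of all members was 0.03. In bulk RNA, fewer cells that make a transcript and less of it per cell cannot be told apart. That is 11.4% higher and 8.68% lower, beside 8.45% and 4.93% of all 24426 measured transcripts. Among unnamed transcripts farther from genes the shares were 13.3% and 7.08%, and among named transcripts 2.85% and 1.88%. The authors' deposited table marked 9 members at a q-value below 0.05, all higher in the Cacnb4 library, and 0.696% of all transcripts.

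Nearly all differences of 2-fold were at short loci, 506 of 521 under 500 bases. Of 681 members under 200 bases, 134 (19.7%) were higher and 92 (13.5%) lower. Of 1206 members from 200 to under 500 bases, 153 (12.7%) were higher and 127 (10.5%) lower. From 500 to under 1000 bases the counts were 8 higher and 6 lower of 465, and among 178 members from 1000 to under 2000 bases 1 was higher. None of the 56 members from 2000 to under 5000 bases and the 5 longer ones differed 2-fold. All measured transcripts of the same lengths had shares of 16.7% higher and 9.88% lower under 200 bases and 12.8% and 7.92% from 200 to under 500 bases. From 500 to under 1000 bases they had 3.41% and 1.31%, and from 1000 to under 2000 bases 2.54% and 0.773%. From 2000 to under 5000 bases they had 2.62% and 1.39%, and above that 2.54% and 1.36%. The range that held the middle of the members, from the 5th to the 95th percentile of the log2 ratio, narrowed from -1.85 to 2.18 under 200 bases, through -0.64 to 0.73 from 500 to under 1000 bases, to -0.34 to 0.36 from 2000 to under 5000 bases.

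**Figure D1:**
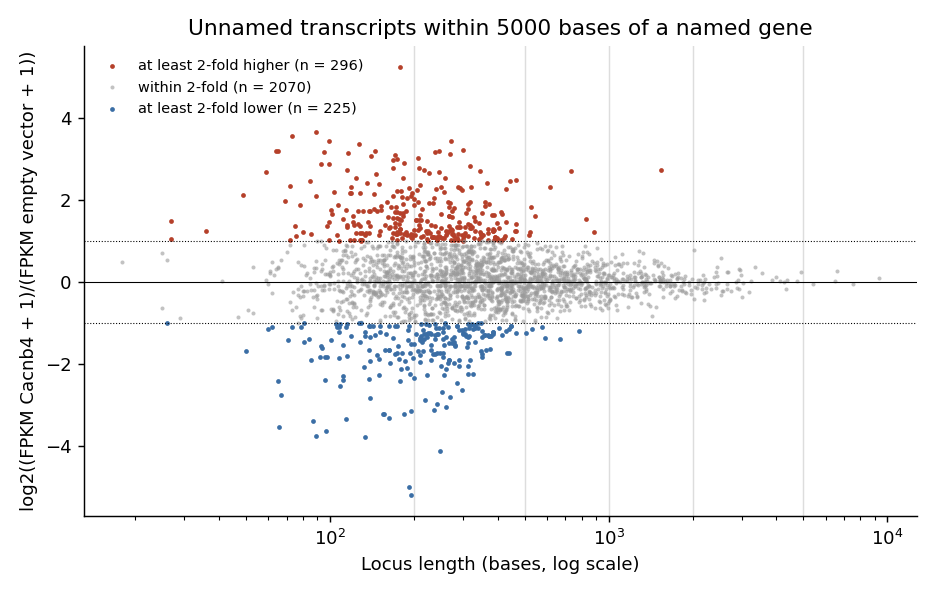
Each point is 1 of 2591 unnamed transcripts within 5000 bases of a named gene, with its locus length in bases on a log axis and its log2 ratio (Cacnb4 over empty vector, FPKM + 1) on the other. Red points are the 296 that were 2-fold or more higher and blue points the 225 that were 2-fold or more lower after Cacnb4, and of these 521 only 15 are 500 bases or longer.

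Reads moved with length, and their part in the differences was not tested. The median member under 200 bases had 14.0 reads in the Cacnb4 library and 13 in the empty vector library, and the median member from 2000 to under 5000 bases had 366 reads in the Cacnb4 library and 348 in the empty vector library. Of the 572 members with fewer than 20 reads in both libraries together, 60.5% differed 2-fold. The share was 15.7% of 929 members at 20 to 49 reads, 3.21% of 498 at 50 to under 100, 3.32% of 301 at 100 to under 200, and 1.03% of 291 at 200 or more. At 20 to 49 reads 16.6% of 838 members under 500 bases differed 2-fold and 7.69% of 91 longer ones did, and at 50 to under 100 reads 4.05% of 296 shorter and 1.98% of 202 longer ones did. Of the members with whole reads, 748 had fewer than 10 reads in 1 library, and 459 of them (266 higher, 193 lower) differed 2-fold. Such members are listed only because the other library reached the floor, so that some difference was fixed by the choice of rows. Among the 1772 with 10 or more reads in both libraries, 24 (1.35%) were higher and 25 (1.41%) lower.

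**Figure D2:**
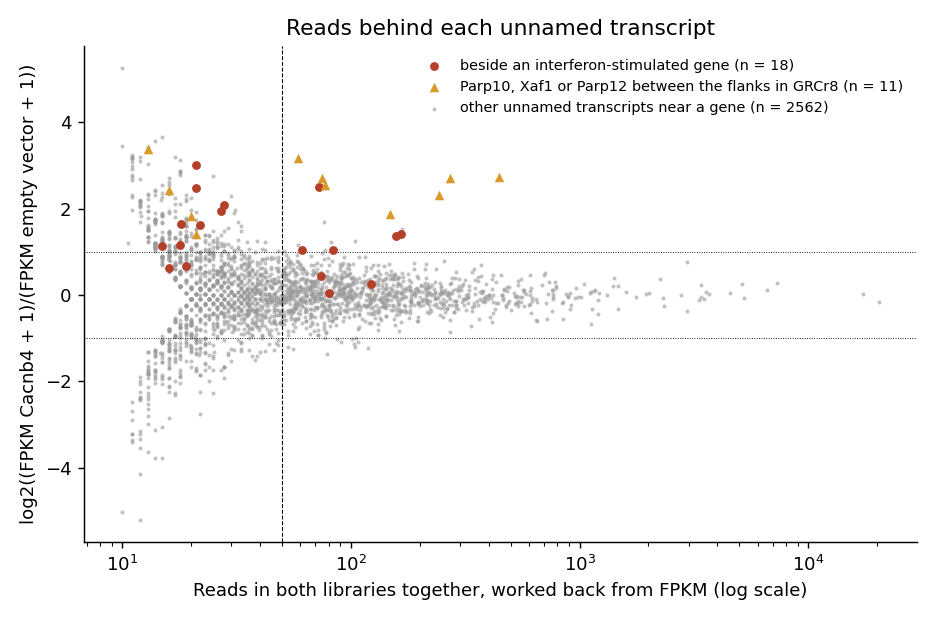
Each point is 1 of 2591 unnamed transcripts near a gene, by its reads in both libraries together (log axis) and its log2 ratio (Cacnb4 over empty vector, FPKM + 1), with a dashed line at 50 reads. The spread narrows as reads increase, the wedge without points at the left edge is the floor of 10 reads in the library with more reads, and the triangles of the Parp10, Xaf1 and Parp12 intervals stand at 1.41 to 3.38, 3 of them beyond 200 reads.

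With 50 or more reads in both libraries together there were 1090 members, of which 19 passed 2-fold upwards and 10 downwards. That is 1.74% higher and 0.917% lower, beside 4.21% and 0.567% of all 5464 unnamed transcripts with as many reads. Of the 19 higher members, 5 lay beside genes of the interferon-stimulated list and 7 in intervals where RefSeq places a further gene of that list. Others lay beside Fam46a, Pappa, Brf2, St8sia2, Col4a1 and Serf2. None of the 10 lower members lay beside a gene that differed 2-fold. These and the members between flanking genes were chosen for naming after their values were seen.

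Beside genes of the interferon-stimulated list lay 18 members next to 8 genes. Of these 13 were higher by 2-fold or more after Cacnb4, none was lower, all 18 had a log2 ratio above 0, and the median was 1.25. Of the 13, 9 had fewer than 10 reads in the empty vector library and so are listed only through the Cacnb4 library. With 10 or more reads in both libraries there were 7 members, of which 4 were higher, 3 beside Zc3hav1 and 1 beside Isg20. Of all 1772 members with whole reads and 10 or more in both libraries, 24 (1.35%) were higher. For scale, 11.4% of all members were higher, and among the genes of the list themselves 49 of 61 measured were higher with a median of 1.94, beside 1.94% higher and 1.08% lower of all 9547 measured gene symbols. Members beside a gene share its stretch of chromosome, so the 18 are not independent of each other. Summed reads ran from 15.0 to 166 per member with a median of 27.5, and 8 members had 50 or more.

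Ifit3 and Ifit1 encode RNA-binding antiviral proteins, and the Ifit3 gene stood at 428 FPKM in the Cacnb4 library, against 22.3 FPKM in the empty vector library. Of the 3 members on its higher-coordinate side, the one at chr1:238579992-238580166, 3551 bases away, had 77.0 FPKM in the Cacnb4 library (19 reads) and 8.73 FPKM in the empty vector library (2 reads). The next, 4480 bases away, had 6.30 FPKM from 15 reads in the Cacnb4 library and 1.36 FPKM from 3 reads in the empty vector library. The third, at chr1:238581391-238581857, had 19.2 FPKM in the Cacnb4 library and 2.58 FPKM in the empty vector library, a log2 ratio of 2.49, and the authors' deposited table gives it a q-value of 0.00236. All 3 were thus higher in the library in which the gene was higher. The member 1783 bases from Ifit1 had 6.49 FPKM from 20 reads in the Cacnb4 library and 0.349 FPKM from 1 read in the empty vector library, while the gene stood at 290 FPKM in the Cacnb4 library and 26.2 FPKM in the empty vector library. The Ifit1 member too is listed only through the Cacnb4 library. In GRCr8 the Ifit-family gene Ifit1bl lies between Ifit3 and Ifit1 and is missing from the names of the table.

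Zc3hav1 encodes the zinc-finger antiviral protein, which binds CpG-rich viral RNA, and stood at 47.8 FPKM in the Cacnb4 library and 23.4 FPKM in the empty vector library. Its 3 members were all on the lower-coordinate side, and 2 of them carried the most reads of the interferon group. The member 2947 bases away, at chr4:65851397-65851523, had 1464 FPKM (123 reads) in the Cacnb4 library and 551 FPKM (43 reads) in the empty vector library, 2.66 times as much with a 95% interval of 1.86 to 3.85. This interval is the exact binomial one for the 2 read counts and covers counting error only, as do all intervals below. The member 3733 bases away had 973 FPKM (116 reads) in the Cacnb4 library and 379 FPKM (42 reads) in the empty vector library, a ratio of 2.56 (1.79 to 3.74). The member 4238 bases away had 167 FPKM (42 reads) in the Cacnb4 library and 81.3 FPKM (19 reads) in the empty vector library, a ratio of 2.05 (1.17 to 3.74). The log2 ratios of the 3 were 1.41, 1.36 and 1.03, and the gene itself was just past 2-fold higher.

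Isg20, an exonuclease that degrades viral RNA, stood at 90.8 FPKM in the Cacnb4 library and 33.4 FPKM in the empty vector library. Its 4 members differed among themselves. The one 2132 bases away had 18.5 FPKM (59 reads) in the Cacnb4 library and 8.42 FPKM (25 reads) in the empty vector library, a ratio of 2.19 (1.35 to 3.65). The nearest, 383 bases away, had 14.6 FPKM (13 reads) in the Cacnb4 library and 6.03 FPKM (5 reads) in the empty vector library, and its interval of 0.808 to 8.65 includes equality. The 904-base member between them had 70 reads in the Cacnb4 library and 53 in the empty vector library, a ratio of 1.23 (0.846 to 1.79), and the farthest had 42 reads in the Cacnb4 library and 38 in the empty vector library, a ratio of 1.03 (0.646 to 1.64). The ratios followed no order along the flank.

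Dtx3l, a ubiquitin ligase that works with Parp9, stood at 31.1 FPKM in the Cacnb4 library and 6.80 FPKM in the empty vector library. A member of 545 bases began 60 bases from it, the closest of the group, and had 4.34 FPKM (19 reads) in the Cacnb4 library and 0.738 FPKM (3 reads) in the empty vector library. Isg15 encodes a ubiquitin-like modifier and stood at 285 FPKM in the Cacnb4 library and 18.0 FPKM in the empty vector library. Its member, 4376 bases away, had 49.5 FPKM (22 reads) in the Cacnb4 library and 12.1 FPKM (5 reads) in the empty vector library, a ratio of 4.09 (1.51 to 13.8). Apol3, of the apolipoprotein L family, was low as a gene, with 1.24 FPKM in the Cacnb4 library and 0.249 FPKM in the empty vector library, and its member of 89 bases had 842 FPKM (23 reads) in the Cacnb4 library and 197 FPKM (5 reads) in the empty vector library. Slfn13, a nuclease of the Schlafen family that cleaves tRNA, differed less, with 21.3 FPKM in the Cacnb4 library and 13.8 FPKM in the empty vector library. Of its 4 members 1 passed 2-fold, with 8.17 FPKM (11 reads) in the Cacnb4 library and 3.20 FPKM (4 reads) in the empty vector library, and the intervals of all 4 include equality. Counting intervals lay wholly above 1 for 10 of the 17 members of the group whose reads were whole. These intervals do not allow for the floor of 10 reads. Members with fewer in the empty vector library, as beside Dtx3l, Isg15 and Apol3, are listed only through the Cacnb4 library. For them an interval above 1 is no check of the direction.

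**Figure D3:**
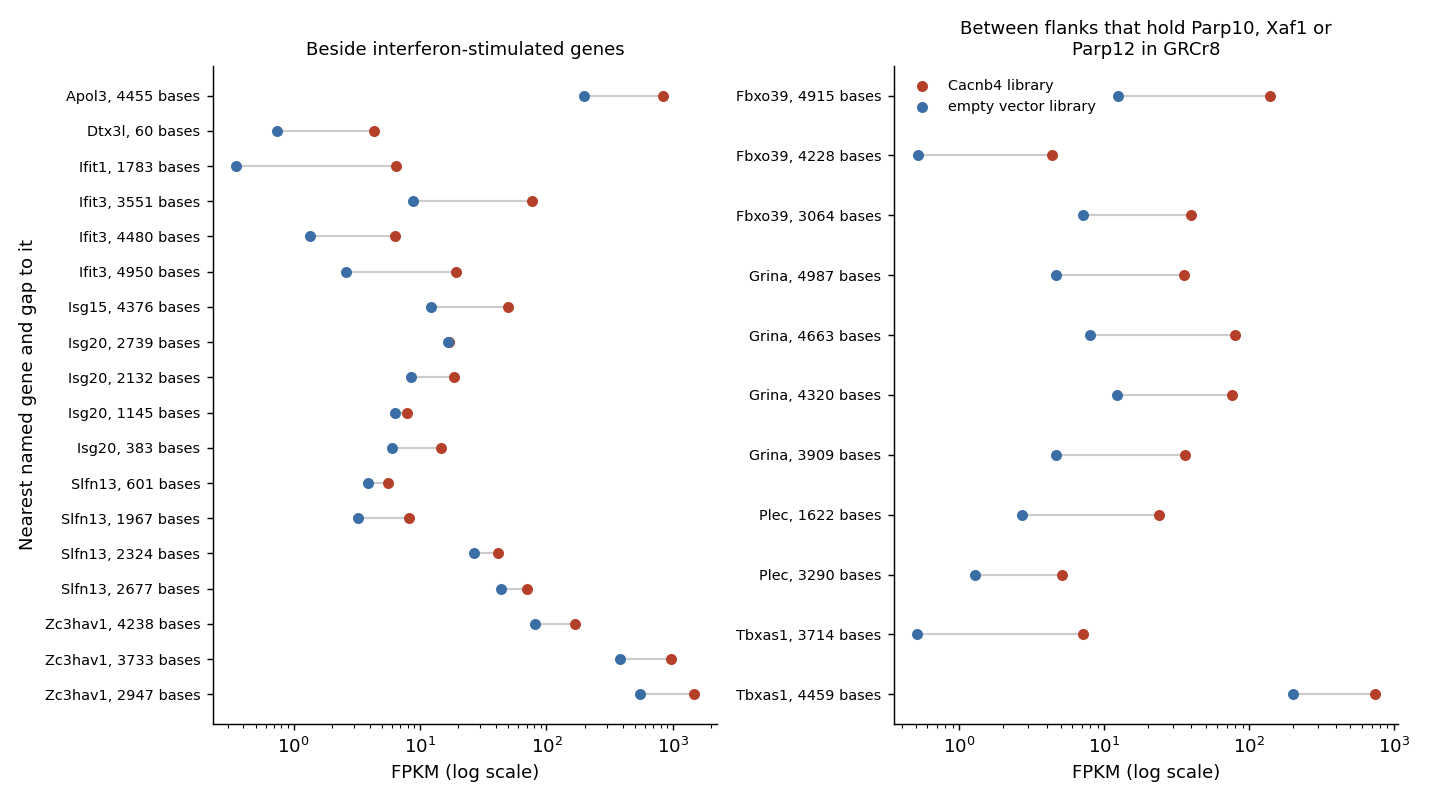
Paired points give the FPKM (log axis) of 18 members beside interferon-stimulated genes and of 11 members between flanking genes that hold Parp10, Xaf1 or Parp12 in GRCr8, red for the Cacnb4 library and blue for the empty vector library, labelled by nearest gene and gap in bases. Red stands to the right of blue in all 29, least so for the Isg20 member 2739 bases away, at 17.1 FPKM in the Cacnb4 library and 16.6 FPKM in the empty vector library.

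The 3 members with 200 or more reads and a 2-fold difference lay beside Plec, Grina and Fbxo39. On rn4 chromosome 7, 6 members lay between Plec, which encodes the cytoskeletal linker plectin, and Grina, a membrane protein of the TMBIM family. Plec stood at 61.0 FPKM in the Cacnb4 library and 55.0 FPKM in the empty vector library, and Grina at 165 FPKM in the Cacnb4 library and 161 FPKM in the empty vector library. The longest of the 6, at chr7:114264007-114265543, had 23.7 FPKM (403 reads) in the Cacnb4 library and 2.73 FPKM (43 reads) in the empty vector library, a ratio of 8.70 (6.34 to 12.2). The authors' deposited table gives it a q-value of 1.46e-11. A member of 732 bases at chr7:114271446-114272178 had 35.7 FPKM (241 reads) in the Cacnb4 library and 4.62 FPKM (29 reads) in the empty vector library, a ratio of 7.72 (5.24 to 11.8) with a deposited q-value of 1.84e-08 in the authors' deposited table. The other 4 had ratios of 3.95 to 10.03, and 5 of the 6 were marked by the authors. RefSeq places Parp10, an ADP-ribosyltransferase and a gene of the interferon-stimulated list, between Plec and Grina in GRCr8, and no row of the table has that name.

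On chromosome 10, 3 members lay between Slc13a5, a citrate transporter, and Fbxo39, an F-box protein. Fbxo39 was barely measured, with 1.07 FPKM in the Cacnb4 library and 0.122 FPKM in the empty vector library, a log2 ratio of 0.89 with 1 FPKM added and so in the direction of its members. The member at chr10:59196392-59197006 had 39.6 FPKM (208 reads) in the Cacnb4 library and 7.17 FPKM (35 reads) in the empty vector library, a ratio of 5.52 (3.84 to 8.14) with a q-value of 4.17e-06 in the authors' deposited table. Its neighbours had 4.36 FPKM (18 reads) and 139 FPKM (12 reads) in the Cacnb4 library, against 0.522 FPKM (2 reads) and 12.5 FPKM (1 read) in the empty vector library. In GRCr8 this interval holds Xaf1, an interferon-induced partner of the apoptosis inhibitor Xiap, which no row names. On chromosome 4, 2 members lay between Tbxas1, thromboxane synthase, and Rab19, a small GTPase. The member at chr4:66681997-66682150 had 735 FPKM (118 reads) in the Cacnb4 library and 201 FPKM (30 reads) in the empty vector library, a ratio of 3.65 (2.43 to 5.65), and the other had 15 reads in the Cacnb4 library and 1 in the empty vector library. Tbxas1 itself stayed under 1 FPKM in both libraries. GRCr8 places Kdm7a, Parp12 and Slc37a3 in this interval, and Parp12 is an ADP-ribosyltransferase of the interferon-stimulated list.

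In all, 11 members in these 3 intervals were each at least 2-fold higher, with a median log2 ratio of 2.54, and 7 of the 9 members marked by the authors were among them. Of the 11, 6 had fewer than 10 reads in the empty vector library and are listed only through the Cacnb4 library, and the other 5 also had a median of 2.54. Among all members with whole reads and 10 or more in both libraries, 1.35% were higher. For comparison, of 1242 members between flanking genes that enclose any further protein-coding gene absent from the table's names, 11.4% were higher and 8.13% lower. Of the 1193 members with no such gene between their flanks, 11.6% were higher and 8.97% lower. The intervals were looked for after the values were seen and gene order was taken from another assembly. Whether the members are exons of Parp10, Xaf1 and Parp12 was not tested.

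Each member was then set against its nearest gene. Of all members, 412 had 2 or more named genes within 5000 bases, the Dtx3l member among them, and only the nearest was used. Of 2366 pairs with a measured gene, 57.5% had ratios of the same sign. Without microRNA precursors, Pearson's r was 0.22 and Spearman's rho 0.20 over 2328 pairs and 1407 genes. These are descriptions across loci, and all pairs share the same 2 libraries. Spearman's rho was 0.17 over 1359 pairs under 50 reads, 0.25 over 726 pairs at 50 to under 200 reads and 0.40 over 243 pairs at 200 reads or more. Pearson's r over the same classes was 0.21, 0.37 and 0.31, highest in the middle class. The median absolute difference between member and gene was 0.65 on the log2 scale under 50 reads and 0.19 at 200 reads or more. Below the mean FPKM of their gene lay 60.6% of 645 members of 500 bases or more and 39.7% of 1721 shorter members. This contrast cannot show how levels depend on length, because of the floor of 10 reads in the library with more reads. In the Cacnb4 library 1 read was worth 30.8 FPKM at 94 bases and 0.228 FPKM at 545 bases. Short loci at low FPKM are thus not listed.

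Beside the 13 measured genes other than microRNA precursors that were at least 2-fold higher lay 22 members, of which 16 were at least 2-fold higher and none lower, and their median was 1.29. Of the 16, 10 had fewer than 10 reads in the empty vector library, and of the 12 with 10 or more in both libraries 6 were higher. The share among all members with whole reads and 10 or more in both libraries was 1.35%. Beside genes within 2-fold lay 2305 members, of which 255 (11.1%) were higher and 212 (9.20%) lower. The 16 lay beside 10 genes: Ifit3, Isg15, Ifit1, Dtx3l, Isg20, Zc3hav1, Fam46a, St8sia2, Casp12 and Trafd1. Of these, 8 have a promoter in the RefSeq table and 4 of the 8 hold the GAAANNGAAA motif: Ifit3, Dtx3l, Isg20 and Casp12. Fam46a, St8sia2, Trafd1 and Zc3hav1 do not. Of all 33469 promoters 3.92% hold it, but the 10 genes were chosen by their values here and include genes of the interferon-stimulated list.

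Fam46a, a gene of the nucleotidyltransferase family, stood at 10.4 FPKM in the Cacnb4 library and 2.84 FPKM in the empty vector library. Its member had 30.8 FPKM (60 reads) in the Cacnb4 library and 8.85 FPKM (16 reads) in the empty vector library, a ratio of 3.48 (1.98 to 6.48). St8sia2 makes polysialic acid and stood at 7.26 FPKM in the Cacnb4 library and 2.58 FPKM in the empty vector library. Its 889-base member followed closely, with 7.08 FPKM (62 reads) in the Cacnb4 library and 2.46 FPKM (20 reads) in the empty vector library, a ratio of 2.88 (1.71 to 5.03). Casp12, an inflammatory caspase, had a member on each side, of 12 and 11 reads in the Cacnb4 library and 2 reads each in the empty vector library. Beside Trafd1, which dampens innate immune signalling, a member of 195 bases had 15 reads in the Cacnb4 library and 6 in the empty vector library. The other Trafd1 member, 1280 bases long, was close to even, with 8.63 FPKM in the Cacnb4 library and 9.10 FPKM in the empty vector library, and Trafd1 itself stood at 53.6 FPKM in the Cacnb4 library and 22.8 FPKM in the empty vector library.

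The marked member outside the interferon group lay 3121 bases from Pappa, a metalloprotease that cleaves insulin-like growth factor binding proteins. It had 16.2 FPKM (130 reads) in the Cacnb4 library and 4.96 FPKM (37 reads) in the empty vector library, a ratio of 3.26 (2.25 to 4.84), with a q-value of 0.0148 in the authors' deposited table. Pappa stood at 5.54 FPKM in the Cacnb4 library and 2.33 FPKM in the empty vector library. Its log2 ratio was 0.975 with 1 FPKM added, just under 2-fold on that scale only. Of the members with 50 or more reads that were lower, the lowest log2 ratio lay beside Scamp4, a secretory carrier membrane protein, with 21 reads in the Cacnb4 library and 58 in the empty vector library, 0.336 times as much (0.194 to 0.562). Beside Nipa1, a magnesium transporter, a 783-base member had 14 reads in the Cacnb4 library and 39 in the empty vector library, a ratio of 0.333 (0.167 to 0.627), at 1.89 FPKM in the Cacnb4 library and 5.67 FPKM in the empty vector library. Beside the kinetochore gene Ndc80 and the replication gene Gins2, members had 35 and 30 reads in the Cacnb4 library, against 66 and 61 in the empty vector library. Scamp4, Nipa1, Ndc80 and Gins2 themselves were all within 2-fold.

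**Figure D4:**
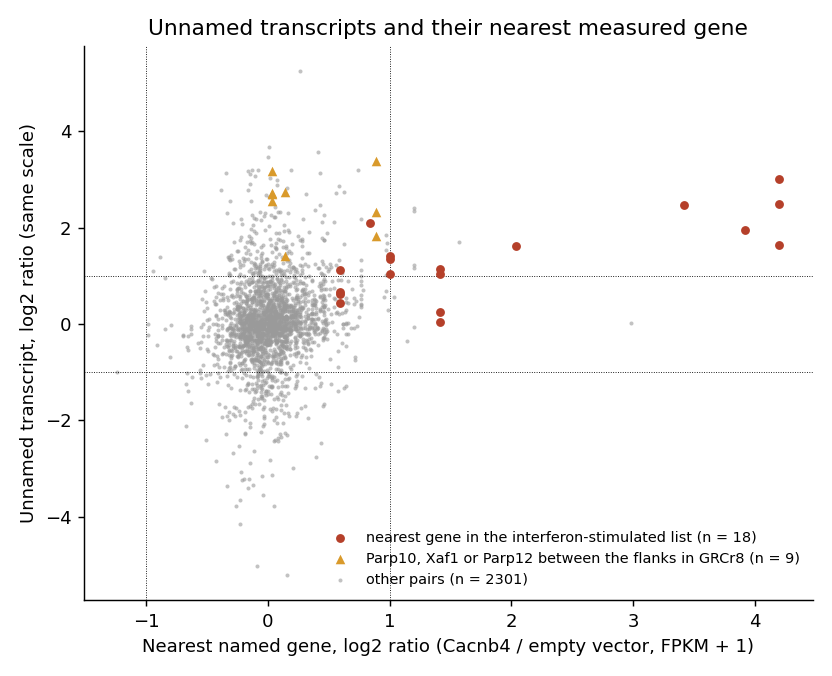
Each point is 1 pair of an unnamed transcript (vertical axis) and its nearest measured gene (horizontal axis), both as log2 ratios, Cacnb4 over empty vector, FPKM + 1. The 18 pairs of the interferon-stimulated list lie above 0 on both axes, the 9 triangles of the Parp10 and Xaf1 intervals with a measured nearest gene stand high beside genes within 2-fold on this scale, and the 2301 other pairs spread widely on the vertical axis around genes that are mostly within 2-fold.

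Of 51 members beside 21 precursors, 2 were at least 2-fold higher and 2 lower, with a median of 0.22. Of 15 measured precursors, 3 were at least 2-fold higher and 8 lower, beside 25.2% higher and 42.5% lower of the 127 measured named transcripts under 200 bases. Reads behind the precursor rows were not worked back, and FPKM at short loci can rest on few reads. The Mirlet7f-2 precursor, source of let-7f-5p, was listed at 881 FPKM in the Cacnb4 library and 1944 FPKM in the empty vector library. Its 5 members all pointed the other way, at log2 ratios of 0.27 to 0.68 and with 16 to 47 reads each in the Cacnb4 library, against 11 to 30 in the empty vector library. The intervals of all 5 include equality. The 5 members beside Mir98, on the same stretch of chromosome X, lay at 0.38 to 0.82 while the precursor had 66.0 FPKM in the Cacnb4 library and 45.6 FPKM in the empty vector library. Mir21, precursor of miR-21-5p, was listed at 1297 FPKM in the Cacnb4 library and 6862 FPKM in the empty vector library, and its lone member had 14 reads in the Cacnb4 library and 7 in the empty vector library. Mir92b was listed at 0 in the Cacnb4 library and at 61.7 FPKM in the empty vector library, with 5 members at -0.05 to 0.86. Mir32, whose product shares the seed of miR-92b-3p, was listed at 0 in both libraries, and its member had 13 reads in the Cacnb4 library and 14 in the empty vector library. The precursor of miR-22-3p stood at 556 FPKM in the Cacnb4 library and 1394 FPKM in the empty vector library, and its members at 0.21 and 0.33.

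Only beside Mir343 and Mir338 did a member and a measured neighbour differ 2-fold in opposite directions. The Mir343 precursor was listed at 38.1 FPKM in the Cacnb4 library and at 0 in the empty vector library, and 1 of its 5 members had 98.6 FPKM (5 reads) in the Cacnb4 library and 361 FPKM (17 reads) in the empty vector library. Mir338 was listed at 0 in the Cacnb4 library against 120 FPKM with the empty vector. Its member had 6.34 FPKM (16 reads) in the Cacnb4 library and 1.71 FPKM (4 reads) in the empty vector library.

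**Figure D5:**
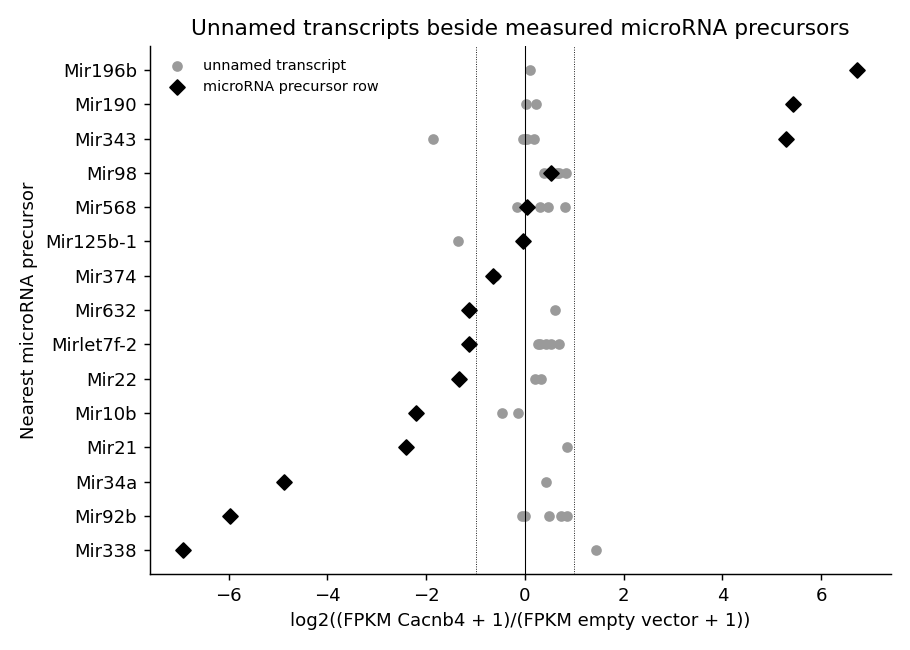
For each measured microRNA precursor, grey points give the log2 ratio (Cacnb4 over empty vector, FPKM + 1) of the unnamed transcripts beside it and the black diamond that of the precursor row. Diamonds run from -6.91 for Mir338 to 6.72 for Mir196b, while all but 3 of the grey points lie within 2-fold. Both of these precursors were listed at 0 in 1 library, and the reads behind the diamonds were not worked back.

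Other lists gave few members each, and their counts stand beside 11.4% higher and 8.68% lower of all members. Members of these lists with fewer than 10 reads in 1 library are listed only through the other library. Beside 10 DNA replication and cell cycle genes lay 12 members, of which 1 was higher and 3 lower, with a median of -0.00096 beside 0.03 for all members. The higher was beside the flap endonuclease Fen1, with 20 reads in the Cacnb4 library and 7 in the empty vector library, and Fen1 itself stood at 6.70 FPKM in the Cacnb4 library and 13.2 FPKM in the empty vector library. The lower were the Gins2 member already given, 1 beside the mitotic cyclin gene Ccnb1, with 5 reads in the Cacnb4 library and 11 in the empty vector library, and 1 beside the origin-licensing gene Cdc6, with 8 reads in the Cacnb4 library and 15 in the empty vector library. Extracellular matrix genes had 12 members, 2 higher and 2 lower. The basement membrane collagen gene Col4a1 had 2 of them, at 1383 FPKM (53 reads) in the Cacnb4 library and 674 FPKM (24 reads) in the empty vector library, a ratio of 2.05 (1.24 to 3.47), and at 14 reads in the Cacnb4 library and 3 in the empty vector library. The lower ones were beside Loxl2, a collagen crosslinking enzyme, with 7 reads in the Cacnb4 library and 17 in the empty vector library, and Col5a1, a fibrillar collagen, with 6 reads in the Cacnb4 library and 14 in the empty vector library.

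Among 5 members beside muscle and heart genes, 1 differed 2-fold, a 50-base locus near the slow skeletal troponin T gene Tnnt1 with 4 reads in the Cacnb4 library and 12 in the empty vector library. The Tnnc1 member of 250 bases, beside cardiac troponin C, had 425 reads in the Cacnb4 library and 279 in the empty vector library, a ratio of 1.41 (1.21 to 1.65), and stayed within 2-fold. The other Tnnc1 member, 2328 bases long and nearer to the gene, went the other way. It had 367 FPKM in the Cacnb4 library and 412 FPKM in the empty vector library, a ratio of 0.892. Stress response genes had 7 members, 3 higher and 1 lower, with a median of 0.83. The higher were beside Chac1, a glutathione-degrading enzyme, the p53 inhibitor Mdm2 and the inducible chaperone gene Hspa1b, with 11, 15 and 10 reads in the Cacnb4 library, against 3, 6 and 4 in the empty vector library. The lower was beside Atf5, a stress transcription factor, with 5 reads in the Cacnb4 library and 16 in the empty vector library. All of these stress members that differed are listed only through the library with more reads. The 42 measured genes of the stress list had a median log2 ratio of 0.04. Beside 16 ribosomal protein genes lay 21 members, 3 higher (Rps21, Rps25 and Rpl30) and 1 lower (Rps15a), with a median of -0.10. The Rps21 member had 10 reads in the Cacnb4 library and 2 in the empty vector library, while the other 3 members of Rps21 lay below 0. Oxidative phosphorylation genes had 5 members, of which 1, beside the ATP synthase gene Atp5b, had 11 reads in the Cacnb4 library and was listed at 0 in the empty vector library. No member lay beside a gene of the nucleic acid sensing or antigen presentation lists.

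Where a gene had many members, these could be compared with each other. Qrich1 had the most, 10, at -1.03 to 0.89 with a median of -0.08, beside a gene at 14.3 FPKM in the Cacnb4 library and 15.1 FPKM in the empty vector library. All 7 members beside Mea1 lay below 0, from -0.99 to -0.10, with the gene at 183 FPKM in each library. The best covered of them had 214 reads in the Cacnb4 library and 227 in the empty vector library, a ratio of 0.875 (0.723 to 1.06). The 7 beside Tm7sf2, a sterol reductase, also lay below 0, at -0.93 to -0.02. Beside Rai1, a chromatin regulator, 4 of 7 were higher with a median of 1.06, from 10 to 25 reads each in the Cacnb4 library and 3 to 11 in the empty vector library, while Rai1 itself stood at 5.37 FPKM in the Cacnb4 library and 4.23 FPKM in the empty vector library. Those of the 4 with fewer than 10 reads in the empty vector library are listed only through the Cacnb4 library. Of all members, 11.4% were higher and 8.68% lower. The 8 members beside Mta2, a subunit of the NuRD complex, went both ways, from -1.55 to 2.32. Map3k11 and Slc27a3 had 8 members each, with 1 higher and none lower, and 2 higher and 1 lower. Myl6b, Rab1b and Tmub2 had 7 each, of which 0, 1 and 0 were higher and 1 each was lower.

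The extremes of the list were all thinly read. The 10 highest and 10 lowest ratios belonged to loci with 10 to 15 reads in both libraries together. The highest lay beside Pcnx, Orai3, Bmpr1b, Tmco1, Ngp, Fbxo39, Akap5, Rcl1, Hbp1 and Pglyrp1. The Orai3 member, beside a store-operated calcium channel gene, had 512 FPKM (14 reads) in the Cacnb4 library and 39.4 FPKM (1 read) in the empty vector library, and the Pcnx member 36.9 FPKM (10 reads) in the Cacnb4 library and was listed at 0 in the empty vector library. The lowest lay beside Fam195b, Cbx3, Pdxk, Gnpat, Ccnk, Hnrnpa1, Snx33, Cfl1, Lsm11 and Zfand5. The Gnpat member had 9.70 FPKM (1 read) in the Cacnb4 library and 146 FPKM (14 reads) in the empty vector library. The members with the highest FPKM were loci of 18 to 29 bases, led by those beside Atg14, with 120303 FPKM in the Cacnb4 library and 74269 FPKM in the empty vector library, and Rab27a, with 112958 FPKM in the Cacnb4 library and 80512 FPKM in the empty vector library. Those beside Fcrlb, Plekhd1, Defb51, RGD1564534 and Cpz were also among the highest.

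The longest members differed little between the libraries. Those beside Lpp (9301 bases), Dsn1, Tceb2, Tll2 and Lrrc58 had 900 to 4117 reads in the Cacnb4 library and 865 to 3161 in the empty vector library, with ratios of 0.957 to 1.21, and the intervals of the Tceb2 member (1.15 to 1.27) and the Lpp member (1.03 to 1.13) lay above 1. Of the 15 members of 500 bases or more that differed 2-fold, 9 were higher and 6 lower. Of the 9, 4 lay in the Parp10 and Xaf1 intervals and 1 beside Dtx3l, and others lay beside Pappa, St8sia2 and Prkce. The 6 lower lay beside H2afj, Ngp, Nipa1, Atf5, Scamp4 and Kpnb1. Of these genes Ngp stayed under 1 FPKM in both libraries, and the other 5 were within 2-fold.

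By distance, of 603 members within 1000 bases of a gene 81 (13.4%) were higher and 69 (11.4%) lower, of 732 from there to 2500 bases 73 (9.97%) and 57 (7.79%), and of 1256 farther out 142 (11.3%) and 99 (7.88%). On the lower-coordinate side 139 were higher and 109 lower, and on the other side 157 higher and 116 lower. Just inside the limit, members beside Atoh8 and Nfib, both at 5000 bases, and Magoh, 1 base nearer, had log2 ratios of -0.70, 0.33 and -0.66. Just outside, at 5006 bases, the transcript beside Ipo13 had 1.55.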

How the data were processed

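Per the labels' protocols, 2 total RNA samples of H9c2 cells were column-purified and sequenced as Illumina libraries. The submitters' processing notes name TopHat 1.4.1 and rn4. The program behind the levels is not given in the sources read for this work. The authors' deposited table has 1 value per transcript and library, read as FPKM from its layout because the header names no unit, and the authors' p-value and q-value, which compare the reads of the 2 libraries. Read counts per library are deposited separately, with the 3' adaptor removed and reads under 10 bases left out, per the file headers. Groups follow the sample titles.

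Locus length is end minus start, and the table does not say whether starts count from 0 or 1. A transcript was measured at 1 FPKM in at least 1 library, and 2-fold refers to the log2 ratio with 1 FPKM added, which understates low values. Ratios given as times are of FPKM. A gene's value is the FPKM sum over its rows. Reads were worked back from FPKM with a truncated fragment-length model chosen because it makes values whole; this step was chosen after seeing the data. The recovery and the counting rule were tested on simulated data. Of 1553 nearest genes, 1529 matched RefSeq GRCr8. No p-value was computed.

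Named are the 10 highest and 10 lowest members, the 8 with the highest FPKM, the 10 genes with most members, up to 8 members beside immune lists and 3 beside each other list, up to 6 opposite pairs, the 6 longest and 6 shortest that differ, 3 on each side of the limit, and up to 8 marked members. Others named were chosen after their values were seen, and some that the rule names are given by group only. A few of its members are not reported here. Members and lists were chosen with earlier results of these data known. Computation used Python 3.11.15, numpy 2.4.6, pandas 2.3.3 and matplotlib 3.10.9.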

Additional observations from a re-analysis of the deposited data

How the results depend on the processing

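Adding 5 FPKM in place of 1 left 182 members higher and 145 lower, 7 pairs in which member and gene were both higher and 0 both lower, and 7 higher members beside interferon-list genes in place of 13. Adding 0.1 FPKM gave 25 pairs both higher and 2 both lower, in place of 16 and 1. With a limit of 1000 bases there were 603 members, 81 higher and 69 lower, and with 10000 bases 4120, of which 459 and 349. Chosen after seeing the data, loci of 500 bases or more left 704 members, 9 higher and 6 lower, with a median log2 ratio of 0.0053. Members with 50 or more reads left 1090, 19 higher and 10 lower, with a median of 0.0038, 7 pairs both higher and 0 both lower, 5 higher beside interferon-list genes and 7 in the Parp10, Xaf1 and Parp12 intervals. Fewer transcripts enter under the last 2, by construction. By length, 5 FPKM gave 58 higher and 59 lower from 200 to under 500 bases and 3 and 0 from 500 to under 1000, where 0.1 FPKM gave 16 and 11 and a minimum of 5 FPKM gave 5 higher. With 5 FPKM added, 11 named members came within 2-fold: those beside Dtx3l, St8sia2, Mir338, Kpnb1, Nipa1, Atf5, Atp5b, Gins2, Col5a1 and Ccnb1 and the Ifit3 member of 6.30 FPKM. The other 48 summary values stayed close, and no value reversed. No paired analysis was possible because each group has 1 library. Most members under 500 bases had fewer than 50 reads in both libraries together, so that their counting intervals are wide. With 1 library per group the spread between cultures and the effect of the plasmid cannot be told apart.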
